A study of Rattus norvegicus with 64 samples.

Results

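The genes of prostaglandin synthesis, signalling and breakdown were followed in the reconstructed bladder wall of rats. The set holds 10 genes, 2 cyclooxygenases (Ptgs1 and Ptgs2), 3 terminal synthases (Ptges, Ptgis and Ptgds), 4 receptors of prostaglandin E2 (Ptger1 to Ptger4) and the degrading enzyme Hpgd. They were chosen by name for their place in the pathway, and all 10 were found among the 15715 named genes of the array, through 12 probes. Male Wistar rats underwent hemicystectomy, the removal of part of the bladder, and the defect was closed with a graft of about 1 cm2. The graft was bladder acellular matrix (BAM), a bladder wall freed of its cells, used alone or seeded with adipose tissue-derived stromal cells (ASCs, called ADSCs in the sample labels) grown to the third passage from fat of male Wistar rats. The labels give the fat donors as 10 weeks old, and the age of the operated rats is not given in the sources used here. Bladders were taken at 7, 30, 90 and 180 days, which gave 8 groups of 8 arrays with RNA of 1 rat on each. All rats carried a graft, so the control at each day was the bladder reconstructed using BAM only, and unoperated bladder was not analysed here. The graft was cut away from the native wall before RNA isolation, and fewer cells of a type cannot be told apart from less RNA per cell in such bulk tissue.

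Prostaglandins are lipid messengers made from arachidonic acid. The cyclooxygenases, Ptgs1 that many cells carry at rest and Ptgs2 that injury and cytokines induce, make an unstable precursor that terminal synthases turn into prostaglandin E2 (Ptges), prostacyclin (Ptgis) or prostaglandin D2 (Ptgds). Prostaglandin E2 acts through 4 receptors, of which Ptger1 raises calcium, Ptger2 and Ptger4 raise cyclic AMP and Ptger3 mostly lowers it, and Hpgd oxidizes prostaglandins to inactive products. In the bladder, prostaglandins are released by urothelium and detrusor muscle on stretch and inflammation and act on contraction and on sensory nerves.

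Promoters are printed for Ptgs2 and Hpgd, the inducible enzyme and the degrading enzyme, since these genes moved in opposite directions in the unseeded graft between 7 and 30 days. Both sequences come from RefSeq on build GRCr8 and run from 250 bases before the start of the gene to 50 bases after it. RefSeq promoters were matched for 9 of the 10 genes, all but Ptgis. Capitals mark matches on either strand to the motifs TTTAAA (resembling a TATA box, held by 13.6% of the 33469 rat promoters of this length), CACGTG (an E-box, 6.42%), TTNNGNAAT (C/EBP-like, 12.3%) and TGACG (part of a cyclic AMP response element, 21.2%), and none of these matches overlap.
Ptgs2, chr13:64713813-64714112, plus strand: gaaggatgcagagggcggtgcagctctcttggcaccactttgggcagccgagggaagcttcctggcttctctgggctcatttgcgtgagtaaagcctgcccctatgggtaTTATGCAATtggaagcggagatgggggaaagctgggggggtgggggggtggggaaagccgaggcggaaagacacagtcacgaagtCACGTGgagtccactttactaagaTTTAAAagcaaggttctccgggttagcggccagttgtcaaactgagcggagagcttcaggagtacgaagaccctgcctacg
Hpgd, chr16:39034782-39035081, minus strand: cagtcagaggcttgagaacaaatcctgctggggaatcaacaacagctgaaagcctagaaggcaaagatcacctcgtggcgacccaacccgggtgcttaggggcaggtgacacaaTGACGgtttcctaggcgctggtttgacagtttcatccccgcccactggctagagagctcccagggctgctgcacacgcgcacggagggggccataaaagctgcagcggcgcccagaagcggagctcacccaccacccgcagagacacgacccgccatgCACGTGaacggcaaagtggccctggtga
With the start base as 0, the TATA-like run of Ptgs2 began at -31, its E-box at -55 and its C/EBP-like match at -140. In Hpgd the TGACG match began at -136 and the E-box at 22. Other motifs searched were TATAAA (the TATA box, 14.2% of promoters) and TGANTCA (AP-1, 7.33%), for which neither window had a match, an NF-kB-like motif (47.3%), matched in Ptgs2 but not in Hpgd, and GGGCGG (the GC box, 33.1%), matched in both. A match describes these letters and is not evidence of binding.

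Levels are log2 processed signals from which the array's own 75th percentile was subtracted, so that lower values are dimmer, and differences are log2 differences between group means with SE. A change passed the test at an adjusted p below 0.01 (limma with Benjamini-Hochberg adjustment over 30367 probes) and a fold change above 1.5, and the brightest probe stands for its gene. The share of gene spots well above background was 73.3% to 95.6% on the early arrays (7 and 30 days) and 35.5% to 64.6% on the late ones (90 and 180 days). Every slide carried a single group, and all arrays of 7 and 30 days were scanned on 1 date and those of 90 and 180 days on another, so slide and group, and scan date and the step from 30 to 90 days, cannot be told apart. In 4 arrays (BAM only at 7 days replicate 7, BAM seeded with ASCs at 30 days replicate 1, BAM only at 90 days replicates 5 and 8) the median correlation over probes with the rest of the group was between 0.892 and 0.936, and results that lost their call without these 4 arrays are given with both values. Of the tissue markers, 11 of the 12 urothelium genes and all 10 smooth muscle genes on the array were well above background on all 8 arrays in each group at 7 days. At that day 73.8% to 86.1% of all gene spots on an array were so, and these counts say little about which tissue was sampled. No member probe was saturated on any array.

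Ptgs1, Ptges, Ptgis and Hpgd were well above background on all 64 arrays. Ptgs2 was so on 26 of 32 arrays at 7 and 30 days and on 4 of 32 at 90 and 180 days. Among the receptors, Ptger2 and Ptger4 were measured on all 32 early arrays but only on 15 and 3 of 32 late ones, Ptger1 on 27 and 1, and Ptger3 on 21 and 0. Ptgds was measured on all 32 early arrays and on 4 late ones. The median local background of an array was between 42 and 52 units on early arrays. On late arrays it was between 99 and 120 with ASCs at 90 days, between 321 and 366 with BAM only at 90 days, and between 119 and 171 for both grafts at 180 days, and its part in the late values of dim genes was not tested.

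**Figure D1:**
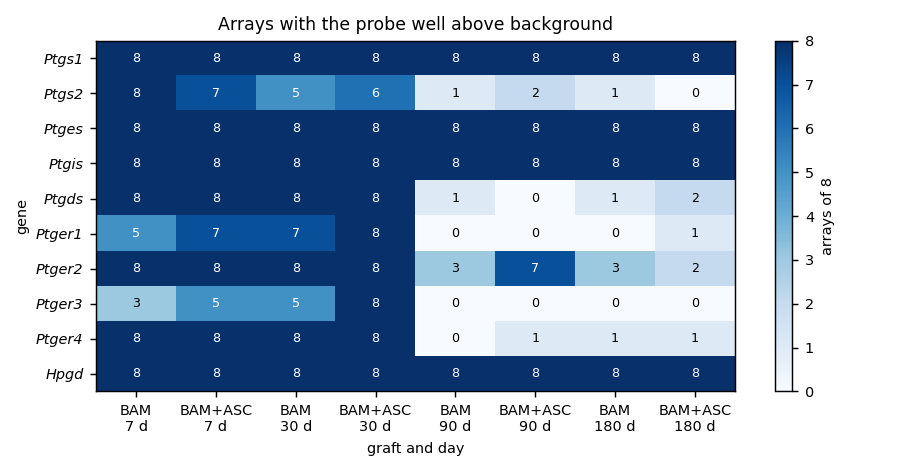
Number of arrays of 8 (colour and digit) on which the probe of each gene (vertical axis) was well above background, for each graft and day (horizontal axis). Ptgs1, Ptges, Ptgis and Hpgd have 8 of 8 in every group, while Ptgs2, Ptgds and the receptors have lower counts at 90 and 180 days.

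**Figure D2:**
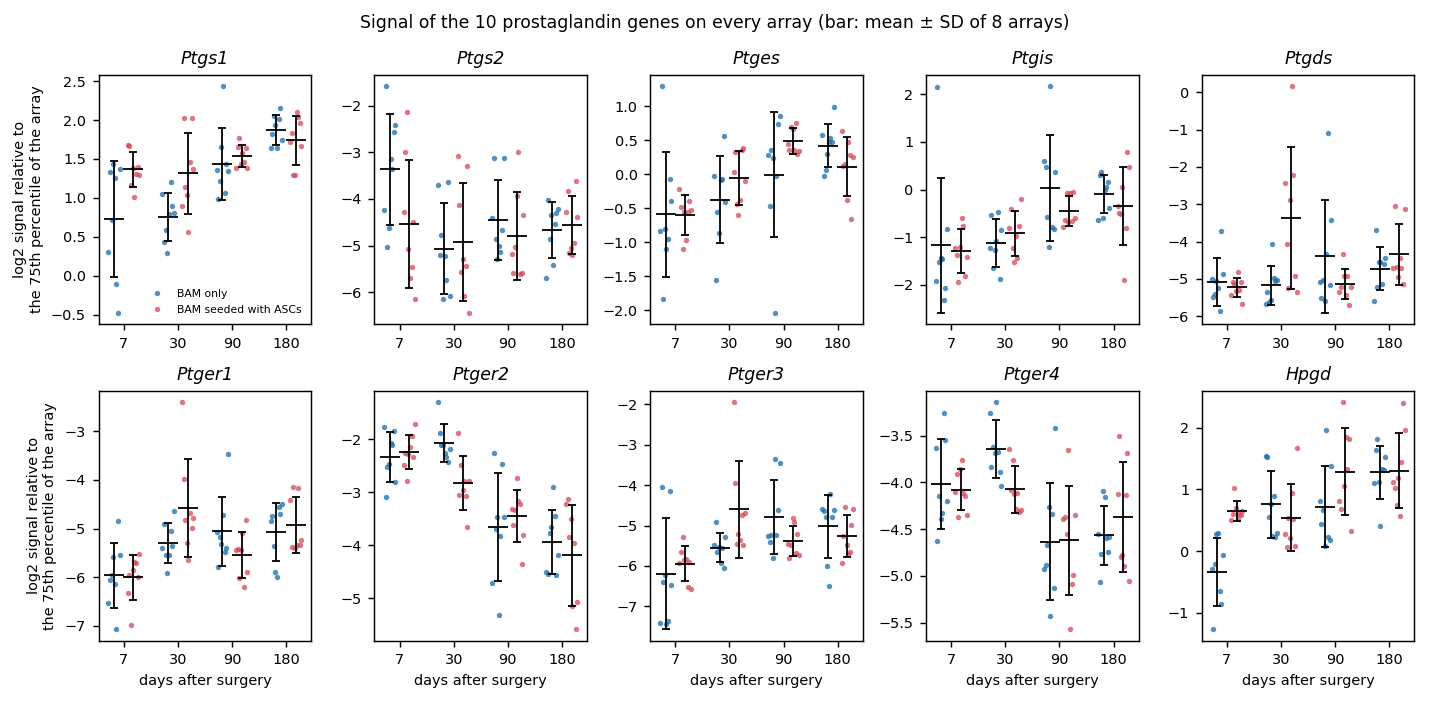
Signal of each gene (vertical axes, log2 relative to the 75th percentile of the array) against days after surgery, with 1 point per array, blue for BAM only and red for BAM seeded with ASCs, and black bars for the mean ± SD of 8 arrays. The Hpgd points with ASCs at 7 days all lie above those with BAM only, and a lone Ptgis point of BAM only at 7 days lies at 2.15.

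With ASCs, Hpgd was the member that passed the test at 7 days, with a higher level than in BAM only, and none passed at 30, 90 or 180 days. The 1 of 10 at 7 days stood beside 7.75% of all named genes called in that comparison, and the 0 of 10 at 30, 90 and 180 days beside 1.97%, 10.2% and 1.05%. At an unadjusted p below 0.05 the counts at these 4 days were 3, 5, 1 and 0, and the analysis of variance of the study's methods called 1, 0, 0 and 0. The share of all named genes at that unadjusted level is not given, here or for later comparisons. The unadjusted counts therefore cannot be set against a background and are not read as a result. The median difference over the 10 genes was -0.03, 0.26, -0.16 and -0.05, against -0.13, 0.08, -0.16 and 0.03 over all named genes. The median over all probes shifted by -0.16, 0.11, -0.27 and 0.06 at these days. The difference with this shift taken off is given beside each call other than "at least" folds and the eicosanoid calls at 90 days. The steps from 7 to 30, 30 to 90 and 90 to 180 days shifted it by -0.06, 0.30 and -0.24 with BAM only and by 0.27, 0.11 and 0.21 with ASCs.

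**Figure D3:**
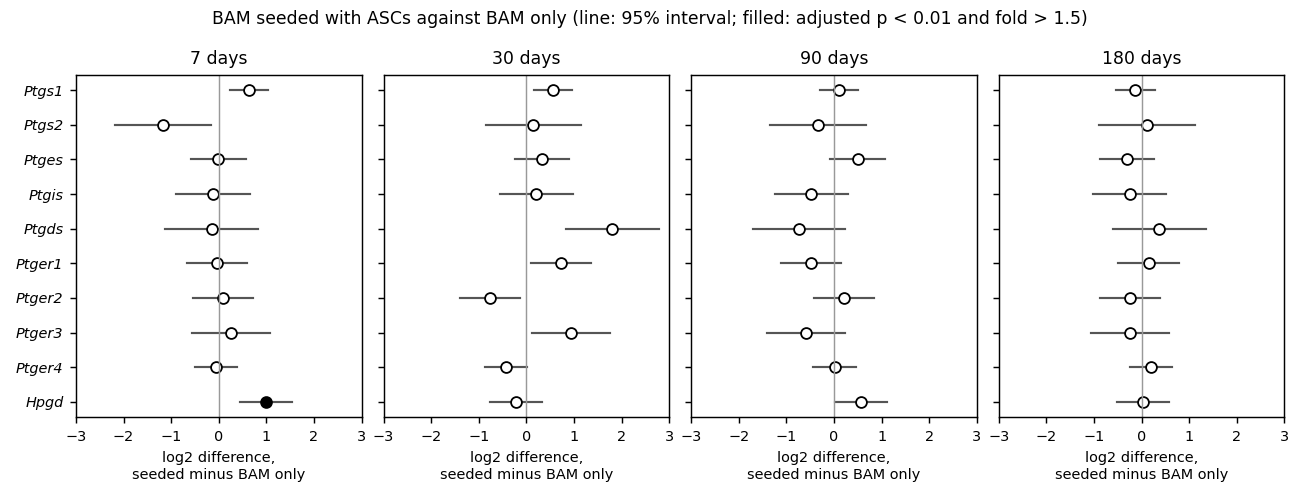
Log2 difference of the seeded graft minus the unseeded graft (horizontal axes) for the 10 genes (vertical axis) at each day, with lines for 95% intervals and filled points for changes that passed the test. Hpgd at 7 days is the filled point, and Ptgds at 30 days lies at 1.80 without passing.

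Within the unseeded graft, Hpgd rose and Ptgs2 fell from 7 to 30 days, and from 30 to 90 days Ptgs1 and Ptgis rose while Ptger2 and Ptger4 fell. Within the seeded graft, Ptgds and Ptger1 rose from 7 to 30 days and fell from 30 to 90 days. These were 2 of 10 genes in BAM only from 7 to 30 days (10.1% of all named genes called) and 4 of 10 from 30 to 90 days (41.3%), and 2 of 10 with ASCs in each of these steps (6.83% and 28.6%). From 90 to 180 days no member passed in either graft, beside 7.83% of named genes in BAM only and 2.67% with ASCs. At an unadjusted p below 0.05 there were 2 and 1 members in that last step, and the analysis of variance called none. Consecutive steps share the arrays of the day between them.

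**Figure D4:**
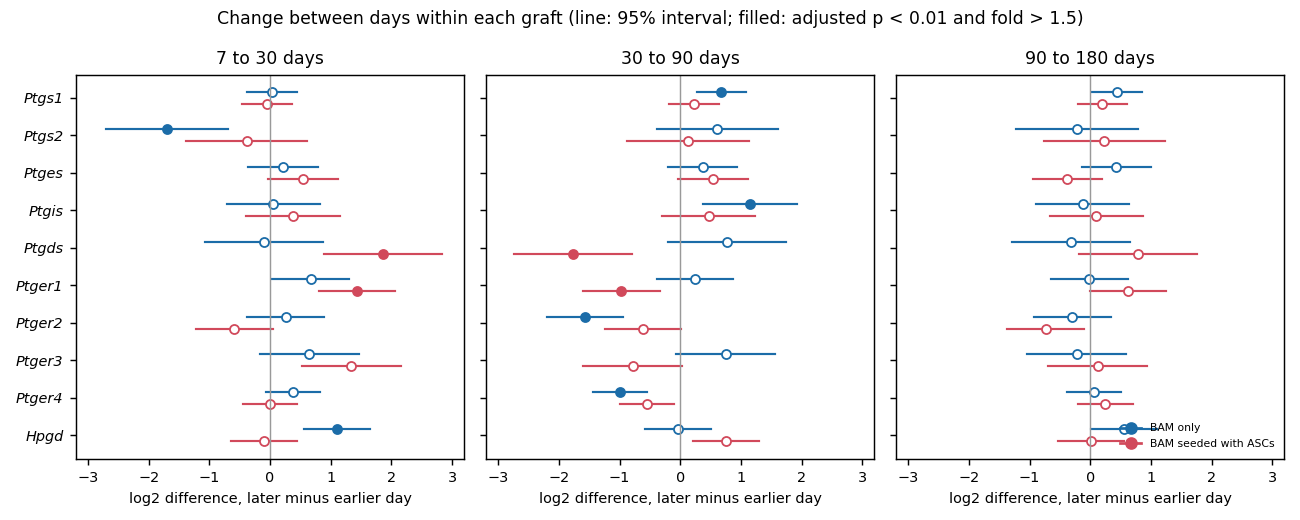
Log2 difference between consecutive days (horizontal axes) for the 10 genes (vertical axis), blue for BAM only and red for BAM seeded with ASCs, with lines for 95% intervals and filled points for changes that passed the test. No point is filled in the step from 90 to 180 days.

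Hpgd, the enzyme that starts the breakdown of prostaglandins, was higher with ASCs at 7 days. Its level at 7 days had a lowest, median and highest value of 0.50, 0.60 and 1.02 with ASCs and of -1.27, -0.25 and 0.29 with BAM only. All 8 arrays with ASCs lay above all 8 with BAM only, and the spread was narrower with ASCs (SD 0.16 against 0.55). The difference was 0.99 ± 0.27, a 1.99-fold higher signal (adjusted p = 0.00641), and 1.16 after the shift of all probes was taken off. The call was lost when any of 7 arrays was left out (with ASCs replicates 3, 4, 6 and 8, with BAM only replicates 2, 6 and 7), with differences between 0.86 and 1.00 and adjusted p between 0.01 and 0.021, and without the 4 arrays that stood apart it was 0.92 (adjusted p = 0.0101). Urothelial markers also differed between the 2 groups. At 7 days 9 of 12 urothelium genes were higher with ASCs and none lower, in a comparison that called 7.75% of all named genes. Their median difference was 2.05, and none was at background on every array. Their summed signal, in units of the array's 75th percentile, ran from 65.8 to 201 with ASCs and from 2.87 to 141 with BAM only. Within the seeded group replicate 3 had the highest Hpgd (1.02) and the lowest sum (65.8). Within BAM only the lowest sum was in replicate 7 (2.87, Hpgd at -0.86) and the highest in replicate 8 (141, Hpgd at -0.06). The lowest Hpgd of that group was in replicate 2 (-1.27, sum 66.1) and the highest in replicate 5 (0.29, sum 76.3). The part of urothelial cells in the Hpgd difference was not tested.

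Hpgd rose in the unseeded graft from 7 to 30 days, and the grafts overlapped at 30 days. Its lowest, median and highest values at 30 days were 0.23, 0.66 and 1.55 with BAM only and 0.07, 0.40 and 1.68 with ASCs, with 3 seeded arrays below all of BAM only and 1 above them, and a difference of -0.22 ± 0.27 (adjusted p = 0.649). In BAM only, the rise from 7 to 30 days was 1.1 ± 0.27, 2.15-fold (adjusted p = 0.0018, 1.16 after the shift of all probes was taken off), and 6 of 8 arrays at 30 days lay above all arrays at 7 days. This call held under every alternative setting run and without any single array, with differences between 0.97 and 1.19. With ASCs the same step was -0.11 (adjusted p = 0.784). The graft effect at 30 days minus that at 7 days was -1.21 ± 0.38 (adjusted p = 0.0465), short of the threshold, and no member passed for this change of effect (0.872% of named genes called, 2 members at an unadjusted p below 0.05, none by the analysis of variance). Urothelium genes also rose in BAM only in this step, 5 of 12 with a median of 1.44, beside 10.1% of all named genes called. At 90 days Hpgd ran from 0.32 over a median of 1.19 to 2.42 with ASCs and from 0.08 over 0.55 to 1.97 with BAM only (difference 0.57 ± 0.27, adjusted p = 0.0893). At 180 days the 2 groups were at 1.31 ± 0.61 and 1.28 ± 0.43 (mean ± SD, n = 8), with a difference of 0.03 and a 95% interval from -0.52 to 0.57.

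Ptgs2, the inducible cyclooxygenase, had its highest group mean in BAM only at 7 days (-3.36 ± 1.19, n = 8). Its level there ran from -5.03 over a median of -3.25 to -1.57, against -6.14, -4.78 and -2.14 with ASCs. The groups overlapped, with 4 of 8 arrays with ASCs below all arrays with BAM only, and the difference of -1.17 ± 0.50 did not pass (adjusted p = 0.0986). In BAM only Ptgs2 fell to -6.14, -5.21 and -3.64 at 30 days, and 5 of 8 of those arrays lay below all arrays of 7 days. The change was -1.70 ± 0.50, 3.25-fold lower (adjusted p = 0.00956, and -1.65 after the shift of all probes was taken off). This call lay close to the threshold. It was lost without any of 11 of the 16 arrays (BAM only at 7 days replicates 2, 5, 6, 7 and 8, at 30 days replicates 2, 3, 4, 5, 6 and 8), with differences between -1.74 and -1.44 and adjusted p between 0.0126 and 0.0349, without the 4 arrays that stood apart (-1.59, adjusted p = 0.0154), and by the analysis of variance (adjusted p = 0.0108). Of the 8 cytokines and enzymes listed as induced together with Ptgs2 (Il1b, Il1a, Il6, Tnf, Nos2, Ccl2, Cxcl1 and Cxcl2), 5 were lower at 30 than at 7 days in BAM only and none higher, and 2 were lower with ASCs than with BAM only at 7 days. Their summed signal ran from 20.5 to 93 in BAM only at 7 days, from 12.3 to 64.5 with ASCs and from 8.66 to 33.4 in BAM only at 30 days. Neutrophil markers fell from 7 to 30 days in BAM only in 8 of 9 genes (median -3.25, summed signal from between 14.7 and 98.6 to between 0.998 and 5.4). Of all named genes 10.1% were called in that step, and 7.75% between grafts at 7 days. Elane, Mmp8 and Ngp were well above background on no array at 30 days in BAM only. Of 9 endothelium genes 6 also fell in this step and none rose (median -0.92, summed signal from between 18.4 and 30.1 to between 9.08 and 13.3), and the part of both cell types in the fall of Ptgs2 was not tested. At 90 and 180 days Ptgs2 was well above background on 0 to 2 arrays of 8 in each group, and the medians there were between -5.11 and -4.44.

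Ptgs1, the constitutive cyclooxygenase, was bright on every array and was lowest in BAM only at 7 and 30 days. At 7 days it ran from 1.01 over a median of 1.35 to 1.68 with ASCs and from -0.48 over 0.99 to 1.44 with BAM only, so that 2 of 8 arrays with ASCs lay above all others. The difference of 0.64 ± 0.20 had an adjusted p of 0.0216, and it passed without BAM only replicate 2, 4 or 8 (between 0.72 and 0.74, adjusted p between 0.00725 and 0.00989) and with the percentile taken over detected probes (0.74). At 30 days the values were 0.56, 1.25 and 2.03 with ASCs and 0.29, 0.80 and 1.21 with BAM only, with 4 of 8 arrays above all of BAM only and a difference of 0.56 ± 0.20 (adjusted p = 0.0736). A second, dimmer probe of Ptgs1 gave 0.37 (adjusted p = 0.306) at 7 days and 0.62 (adjusted p = 0.0859) at 30 days. In BAM only Ptgs1 rose to 0.98, 1.35 and 2.44 at 90 days, by 0.68 ± 0.20 or 1.60-fold (adjusted p = 0.00322), which was 0.38 after the shift of all probes was taken off. The second probe gave 0.58 for this step (adjusted p = 0.0272), and the call was lost without replicate 4 at 30 days (0.61) or replicate 5 at 90 days (0.53, adjusted p = 0.0176) and without the 4 arrays that stood apart (0.52, adjusted p = 0.0135). At 180 days both groups were at their highest, 1.74 ± 0.31 with ASCs and 1.87 ± 0.20 with BAM only (mean ± SD, n = 8).

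Among the terminal synthases, Ptges and Ptgis passed the test between grafts at no day, and Ptgds had its largest difference at 30 days. Ptges, which makes prostaglandin E2, ran from -1.10 over -0.54 to -0.21 with ASCs and from -1.83 over -0.83 to 1.30 with BAM only at 7 days. The groups had nearly equal means, with a difference of -0.01 and a 95% interval from -0.58 to 0.56, and BAM only was the wider group. At 30, 90 and 180 days the differences of Ptges were 0.32, 0.49 and -0.31 (adjusted p = 0.497, 0.158 and 0.794). At 90 days all 8 arrays with ASCs lay between 0.30 and 0.75, while BAM only ran from -2.04 to 0.86.

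Ptgis, prostacyclin synthase, ran from -1.94 over -1.31 to -0.59 with ASCs and from -2.33 over -1.49 to 2.15 with BAM only at 7 days, where replicate 2 stood alone at 2.15 and the next array was at -0.82. Between grafts its differences at 7, 30, 90 and 180 days were -0.12, 0.21, -0.48 and -0.25 (adjusted p between 0.315 and 0.946). In BAM only it rose from -1.89, -1.16 and -0.47 at 30 days to -1.21, -0.10 and 2.18 at 90 days, and 4 of 8 arrays at 90 days lay above all arrays of 30 days. The rise was 1.15 ± 0.38, 2.22-fold (adjusted p = 0.00768, 0.86 after the shift of all probes was taken off). It was lost without any of 9 arrays (BAM only at 30 days replicates 1, 3, 4, 5 and 7, at 90 days replicates 1, 2, 5 and 8), with differences between 0.85 and 1.16 and adjusted p between 0.0106 and 0.0423, and was 0.74 (adjusted p = 0.0907) without the 4 arrays that stood apart. The call was also lost after quantile normalization (1.12, adjusted p = 0.0126), with dim probes left out (adjusted p = 0.0109) and in the separate fit of these groups (adjusted p = 0.0217). Of 10 smooth muscle genes 5 were higher at 90 than at 30 days in BAM only and none lower (median 0.84, summed signal between 106 and 165 at 30 days and between 110 and 377 at 90 days), as were 4 of 9 endothelium genes (median 0.57, summed signal from between 9.08 and 13.3 to between 10.1 and 16.1) and 4 of 7 striated muscle genes (median 1.13, from between 4.49 and 11.7 to between 6.56 and 44.7), in a step that called 41.3% of all named genes. Myh4 was well above background on no array of either day, and Myh1 on none at 90 days. The part of these cells in the Ptgis rise was not tested.

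Ptgds, the lipocalin-type synthase of prostaglandin D2, was dim in most groups. At 30 days it was higher in some rats with ASCs than in any with BAM only. With ASCs it ran at 30 days from -5.35 over a median of -3.48 to 0.17, against -5.68, -5.21 and -4.07 with BAM only. In the seeded group 5 of 8 arrays lay above all arrays of BAM only, and the other 3 lay among them. The difference of 1.80 ± 0.49 had an adjusted p of 0.0153, and it passed without replicate 3, 7 or 8 of the seeded group (between 2.02 and 2.09, adjusted p between 0.00526 and 0.00857). At 7 days the seeded arrays had been between -5.66 and -4.82, so the rise with ASCs was 1.86 ± 0.49, 3.63-fold (adjusted p = 0.00364, 1.59 after the shift of all probes was taken off), and it was lost without replicate 1, 5 or 6 at 30 days (between 1.36 and 1.73, adjusted p between 0.0112 and 0.0172) and after normexp background correction (1.1, adjusted p = 0.0138). At 90 days with ASCs no array was well above background for Ptgds, and its processed signal was 3.40-fold lower than at 30 days (adjusted p = 0.00215). This fold is the fitted difference of -1.77 (-1.875 after the shift of all probes was taken off) and not a lower limit. That fall was lost without replicate 5 at 30 days (-1.26, adjusted p = 0.0148) and was -0.57 (adjusted p = 0.162) after normexp correction. With BAM only the 90 day values ran from -5.60 to -1.08, with 1 of 8 arrays well above background.

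The change in the graft effect on Ptgds between 30 and 90 days was the member result that passed among the differences of effects. The effect at 90 days minus that at 30 days was -2.54 ± 0.69 (adjusted p = 0.00586, -2.23 after the shift of all probes was taken off), 1 of 10 members beside 7.69% of all named genes. Of the arrays at 90 days, 1 of 8 with BAM only and 0 of 8 with ASCs were well above background for Ptgds. The call was lost without any of 5 arrays (with ASCs at 30 days replicates 1, 5 and 6, with BAM only at 90 days replicates 6 and 8), with differences between -2.40 and -2.03 and adjusted p between 0.0107 and 0.012, and was -2.23 (adjusted p = 0.0238) without the 4 arrays that stood apart and -1.35 (adjusted p = 0.0519) after normexp correction. For the effect at 180 days minus that at 90 days no member passed, at an adjusted or at an unadjusted p below 0.05 or by the analysis of variance (7.29% of named genes called).

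Among the receptors of prostaglandin E2, Ptger2 and Ptger4, which raise cyclic AMP, fell in BAM only from 30 to 90 days, and Ptger1 rose and fell with ASCs. Ptger2 ran from -2.43 over -2.15 to -1.30 with BAM only at 30 days and from -3.66 over -2.86 to -1.89 with ASCs, and 7 of 8 seeded arrays lay below all of BAM only. The difference of -0.76 ± 0.32 did not pass (adjusted p = 0.119). In BAM only Ptger2 reached -5.31, -3.58 and -2.26 at 90 days, with 7 of 8 arrays below all arrays of 30 days and 3 of 8 well above background. The fall was -1.57 ± 0.32, 2.98-fold (adjusted p = 1.95e-05, -1.87 after the shift of all probes was taken off), and it held under every alternative run and without any single array, with differences between -2.11 and -0.79. With ASCs the same step was -0.61 (adjusted p = 0.0998). At 7 days the 2 grafts were close, with medians of -2.26 and -2.28 and a difference of 0.09 with a 95% interval from -0.54 to 0.72.

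Ptger4 had SDs between 0.22 and 0.48 in the 4 groups of 7 and 30 days. It ran from -4.32 over -4.11 to -3.64 with ASCs and from -4.04 over -3.68 to -3.14 with BAM only at 30 days (difference -0.43 ± 0.22, adjusted p = 0.21, 6 of 8 seeded arrays below all others). In BAM only no array of 90 days was well above background for Ptger4, and its processed signal was at least 1.75-fold lower than at 30 days (adjusted p = 0.000113). After normexp background correction this fall was -0.47 (adjusted p = 0.0121). With ASCs the step from 30 to 90 days was -0.55 (adjusted p = 0.0371). Of 10 macrophage markers 7 were lower and 1 higher in BAM only in the same step (summed signal between 90.7 and 131 at 30 days and between 25.1 and 76.9 at 90 days). With ASCs 3 of 10 were lower. These steps called 41.3% of all named genes in BAM only and 28.6% with ASCs, so the count with ASCs was near that share. Of these markers Marco was well above background on no array of either day in BAM only. Their part in the fall of both receptors was not tested.

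Ptger1, the calcium-linked receptor, rose with ASCs from between -6.99 and -5.53 at 7 days to between -5.65 and -2.40 at 30 days. Here 7 of 8 arrays at 30 days lay above all arrays of 7 days, and the highest was replicate 1, 1 of the arrays that stood apart. The rise was 1.43 ± 0.32, 2.69-fold (adjusted p = 0.000606, 1.16 after the shift of all probes was taken off), and 1.12 (adjusted p = 0.000763) without the 4 arrays that stood apart. After normexp correction it was 0.53 (adjusted p = 0.0532) and after quantile normalization 0.77 (adjusted p = 0.121). No seeded array of 90 days was well above background, so in the processed signal the later fall of Ptger1 was at least 1.84-fold (adjusted p = 0.009). This call was lost without any of 11 of the 16 arrays (with ASCs at 30 days replicates 1, 2, 3, 6 and 8, at 90 days replicates 1, 2, 3, 4, 6 and 8), with differences between -1.0 and -0.66. It was also lost without the 4 arrays that stood apart (-0.66, adjusted p = 0.0222) and after normexp correction (-0.05, adjusted p = 0.836). At 30 days Ptger1 and Ptger3 differed between grafts by 0.72 ± 0.32 (adjusted p = 0.137) and 0.94 ± 0.41 (adjusted p = 0.133).

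Ptger3, the receptor that mostly lowers cyclic AMP, was the dimmest receptor by the number of arrays that measured it. With ASCs at 30 days it ran from -5.48 over -4.97 to -1.94, with the highest value again in replicate 1, and with BAM only from -6.06 over -5.54 to -4.90. Its 2 probes parted in BAM only from 30 to 90 days. The brightest gave 0.75 (adjusted p = 0.104) and the other 1.36 (adjusted p = 0.000111), and neither was well above background on any array at 90 days. After quantile normalization the brightest probe gave -0.35 for this step, so no direction is given.

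The order of the 8 groups by mean level was mostly not resolved. Neighbours in the order differed by less than the larger of their SDs in 67 of 70 pairs over the 10 genes. The 3 exceptions were the gaps at 30 days between the seeded and the unseeded graft for Ptgs1 (0.56), between BAM seeded with ASCs at 30 and at 90 days for Ptger2 (0.61), and between BAM seeded with ASCs at 30 days and BAM only at 7 days for Hpgd (0.89). From the highest to the lowest group the means spanned 1.65 for Hpgd, 1.14 for Ptgs1, 1.09 for Ptges and 1.32 for Ptgis, the genes measured on every array.

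The genes whose pattern over the 64 arrays was most like that of a member were found after the group means were removed, among 11139 genes well above background on at least 32 arrays. For Ptgs1 they were Bmp3, a bone morphogenetic protein (r = 0.832, 0.84 with group means kept), Itgb4, the beta subunit of the hemidesmosome integrin (r = 0.829, 0.873 with group means kept) and Slc38a2, an amino acid transporter (r = 0.779, 0.373 with group means kept). For Ptgs2 they were Osm, the cytokine oncostatin M (r = 0.656, 0.529 with group means kept), the stress response gene Ppp1r15a (r = 0.603, 0.378 with group means kept) and G0s2 (r = 0.603, 0.578 with group means kept). Ptgs2 itself was well above background on 30 of the 64 arrays, short of that filter, so its r values rest partly on dim signal. Ptges went with Cyp2s1 (r = 0.773, 0.787 with group means kept), Sorl1 (r = 0.766, 0.815 with group means kept) and Serpinb1a (r = 0.747, 0.449 with group means kept), and Ptgis with Cryab, a small heat shock protein (r = 0.892, 0.9 with group means kept), the smooth muscle calponin Cnn1 (r = 0.852, 0.849 with group means kept) and Lmcd1 (r = 0.837, 0.789 with group means kept). These are Pearson correlations over arrays that share a slide within each group, given as a description.

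Around the 10 members, 34 other genes of the eicosanoid pathways were read from the same fit. Of these 4 were lower with ASCs at 7 days and none higher, 3 were higher at 30 days, 2 were lower at 90 days and 1 was higher at 180 days, in comparisons that called 7.75%, 1.97%, 10.2% and 1.05% of all named genes, with medians over the 34 genes between -0.11 and 0.00 at the 4 days. At 7 days the lower genes were 2 prostanoid receptors and 2 leukotriene genes. Ptgdr2, the prostaglandin D2 receptor of type 2 lymphocytes and eosinophils, was at -5.61 ± 0.38 with ASCs and -3.73 ± 0.86 with BAM only (mean ± SD, n = 8), with all 8 seeded arrays below all others and a difference of -1.88 ± 0.26 (adjusted p = 2.14e-07, -1.72 after the shift of all probes was taken off). Ptgir, the prostacyclin receptor, was at -1.10 ± 0.27 and -0.39 ± 0.26, with 7 of 8 seeded arrays below all others and a difference of -0.71 ± 0.12 (adjusted p = 2.93e-05), which was -0.54 after that shift was taken off. Ltc4s, leukotriene C4 synthase, and Ltb4r2, a leukotriene B4 receptor, differed by -1.36 and -1.59 (adjusted p = 0.00022 and 0.000376), or by -1.20 and -1.43 with the shift taken off. In the same comparison 2 of 9 neutrophil genes were lower (median -1.16, summed signal between 8.01 and 28.9 with ASCs and between 14.7 and 98.6 with BAM only, with Elane at background on all arrays with ASCs and Ngp on all with BAM only). Of 9 endothelium genes 2 were lower (median -0.56, summed signal between 12.9 and 19.1 against 18.4 and 30.1), beside the urothelium genes given above. The part of these cells in the 4 differences was not tested.

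Ptgir was the eicosanoid gene that differed in opposite directions at the first and last day. At 180 days it ran from -0.77 to -0.27 with ASCs and from -1.46 to -0.93 with BAM only, so that all 8 seeded arrays lay above all others, with a difference of 0.63 ± 0.12 (adjusted p = 0.000341, 0.57 after the shift of all probes was taken off). The effect at 180 days minus that at 90 days was 1.04 ± 0.18 (adjusted p = 8.15e-06, 0.66 after the shift was taken off). At 30 days Ptgr1, a reductase of prostaglandin breakdown, was higher with ASCs (0.18 ± 0.70 against -0.99 ± 0.31, difference 1.17, adjusted p = 0.00411, 1.06 after the shift was taken off). Pla2g10, a secreted phospholipase, and Ptgfr, the receptor of prostaglandin F2 alpha, were higher by 1.92 and 1.28 (adjusted p = 0.00203 and 0.00659), or by 1.81 and 1.17 after the shift was taken off, and with BAM only they were well above background on 2 and 1 arrays of 8. At 90 days Ptgfr and Ltc4s passed as lower with ASCs (adjusted p = 0.00669 and 0.00902). Ptgfr was at -5.91 ± 0.33 with ASCs and -4.83 ± 0.95 with BAM only, and Ltc4s at -5.61 ± 0.48 and -4.69 ± 0.70 (mean ± SD, n = 8). For each gene 1 of 8 arrays with BAM only and 0 of 8 with ASCs were well above background, so no fold is given. Of the 7 other prostanoid synthases none passed at any day between grafts.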

How the data were processed

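Total RNA of the reconstructed bladder wall was hybridized to 1-colour Agilent rat arrays, 1 rat per array, 8 per group and 64 in all. Scanner tables of Agilent Feature Extraction 12.0.1.1 were deposited, whose processed signal is an intensity after background correction within each array, and a series matrix of the same intensity values, used here as an alternative only, with 3 columns on another scale. From the intensity, log2 minus the 75th percentile of gene spots was computed per array, without control spots. Outlier spots were then left out, and the remaining spots of a probe were averaged. Probes were named by RefSeq accession with a table of assembly GRCr8, whose promoters were used, and for each gene the brightest probe over all arrays was taken. A linear model of 8 groups over all 64 arrays was run in limma 3.58.1 (R 4.3.3), with Benjamini-Hochberg adjustment over 30367 probes, an adjusted p threshold of 0.01 and a fold change above 1.5, as in the study's methods. The fit was tested on simulated data. "At least" folds set the dim group at the higher of its own signal and the lowest signal well above background on each array. These folds were computed from the processed signal scaled as above, not under the alternatives. Normexp gave smaller falls for Ptger4 and Ptger1, so the folds are lower limits for the processed signal only. Python 3.11.15 with pandas 2.3.3 and numpy 2.4.6 was used for summaries. The members and gene lists were chosen with earlier results of these data known. All members are described, and other eicosanoid genes are named where they passed between grafts at 1 or more days. For Ptgs1, Ptgs2, Ptges and Ptgis the 3 genes with the highest correlation are named. Marker lists of mast cells (9 genes on the array), endothelium (9), adipocytes (9) and striated muscle (7) were also counted. Between grafts 2 endothelium genes were lower at 7 days and 1 at 90 days, and none of mast cells, adipocytes or striated muscle passed at any day. Alternatives were normexp with an offset of 50, quantile normalization, other percentiles and probes, the series matrix, a separate fit, the analysis of variance, a replicate block and leaving out arrays. Arrays were grouped by the graft and day of their labels. The labelled replicate numbers were not taken to pair rats. Array number limits the precision.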

Additional observations from a re-analysis of the deposited data

Results flagged for a closer look

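In 8 of 80 groups of 8 arrays, 1 array of a member lay apart from the rest, with a gap to its nearest neighbour above 0.526 of the group's range, Dixon's critical value for 8. Chance flags about 5% of groups. With BAM only at 7 days, Ptgis was highest in replicate 2 (2.15, next -0.82, ratio 0.662) and Ptgds in replicate 7 (-3.72, next -4.86, ratio 0.532). With BAM only at 30 days, Ptgds was highest in replicate 5 (-4.07, next -4.98, ratio 0.56). With BAM only at 90 days, replicate 5 was highest for Ptgs1 (2.44, next 1.65, ratio 0.542) and lowest for Ptges (-2.04, next -0.46, ratio 0.546), and replicate 8 was highest for Ptger1 (-3.47, next -4.72, ratio 0.537). With ASCs, Ptger3 was highest at 30 days in replicate 1 (-1.94, next -3.95, ratio 0.569) and Hpgd at 7 days in replicate 3 (1.02, next 0.70, ratio 0.612). Of the differences between graft effects, that of Ptgds at 90 days minus 30 days was -2.54 by the interaction term in limma (adjusted p = 0.00586).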

How the results depend on the processing

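Of the 130 member differences, 12 passed. None of these had another sign under any alternative run, and 10 were not called under at least 1 alternative or without 1 array, while 7 others were called under one. The exceptions were Hpgd from 7 to 30 days and Ptger2 from 30 to 90 days, both with BAM only. The counts of members called moved by over 1.5 times as follows, and the cause was not tested. Between grafts at 7 days the count of 1 became 2 with the 75th percentile over detected probes and 0 without the 4 arrays that stood apart (chosen after seeing the data). With BAM only, 2 from 7 to 30 days became 1 with the series matrix, the analysis of variance, the separate fit or without the 4 arrays, and 4 from 30 to 90 days became 2 without them (3 with normexp, dim probes left out or the separate fit, 5 with the mean of all probes of a gene). With ASCs, 2 from 7 to 30 days became 0 with normexp, quantile normalization, the series matrix or the separate fit, and 2 from 30 to 90 days became 0 with normexp, quantile or the separate fit and 1 without the 4 arrays. For the effect at 90 minus 30 days, 1 became 0 with normexp, quantile, the separate fit or without the 4 arrays. Among the changes over time, directions reversed for members that did not pass, among them with BAM only from 30 to 90 days for Ptger1 (0.24, -1.16 after quantile, -0.0813 without the 4 arrays) and Ptger3 (0.75, -0.35 after quantile), and with ASCs for Ptger4 (-0.55, 0.0577 after normexp) and Ptger3 (-0.78, 0.0387 after normexp). Between grafts, 12 of 40 member differences, none called, had another sign under at least 1 alternative, 8 of them after quantile and 4 after normexp, such as Ptger3 (-0.59, 0.74 after quantile) and Ptgds (-0.73, 0.25 after quantile) at 90 days. Leaving out 1 array at a time gave 0 to 2 members between grafts at 7 days, 0 to 1 at 30 days and 0 to 0 at 90 and 180 days, 1 to 2, 2 to 4 and 0 to 0 in the 3 steps with BAM only, 1 to 3, 1 to 2 and 0 to 0 with ASCs, and 0 to 0, 0 to 1 and 0 to 0 for the differences of effects.

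With the replicate number as a block, Hpgd at 7 days was 0.99 (adjusted p = 0.0122) and the count there was 0, and no other count changed. Deviations of arrays with the same number correlated over 0.1 in 3, 3, 2 and 1 of 8 pairs at 7, 30, 90 and 180 days, so the numbers were not taken to pair rats. At 90 and 180 days the signal over background limits Ptgs2, Ptgds and the receptors.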
